A study of Homo sapiens with 6 samples.

Results

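The subunits of the oxidative phosphorylation machinery were examined complex by complex in PC9 cells and in the persister (PS) cells derived from them. Members were chosen by gene symbol and not by their measured values: the NDUF subunits of complex I, SDHA to SDHD of complex II, the UQCR subunits and CYC1 of complex III, the COX subunits of complex IV, the ATP5 subunits of complex V, and the protein genes of mitochondrial DNA (mtDNA). The rule found 96 of the 36459 gene symbols in the count table, of which 83 are encoded in the nucleus and 13 in mtDNA. NDUFA4 carries a complex I name but was counted with complex IV, where the protein is now placed.

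PC9 is an established line of human non-small cell lung cancer that depends on the kinase EGFR, and erlotinib inhibits that kinase. The 3 PC9 libraries came from 3 independent cultures without drug. The 3 PS libraries were pooled from 9 independently cultured dishes of PC9 cells kept for 6 days in 15 µM erlotinib, so a PS library averages over cultures and a PC9 library does not. PC9 is a single line, and the PS cells are those that survived under the drug. RNA was enriched by poly-A pull-down and quantified as estimated counts per gene.

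Complexes I and II feed electrons from NADH and succinate into coenzyme Q, complex III passes them on to cytochrome c, and complex IV hands them to oxygen. Complexes I, III and IV pump protons, and complex V, the ATP synthase, lets the protons back through its c-ring to make ATP. Complex II is built from nuclear genes alone, while the others combine nuclear subunits with core subunits that mtDNA encodes and mitochondria transcribe and translate themselves. Nuclear and mtDNA genes are therefore given apart.

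Values are CPM, the count of a gene scaled to a fixed library size after normalisation by the trimmed mean of M values, and a gene is called changed at a Benjamini-Hochberg adjusted p under 0.01 in edgeR's quasi-likelihood test over all genes. The total gene count ran from 29476725 to 34893782 per library. Of 14626 genes tested, 28.1% were lower and 28.7% higher in PS cells, and 71.3% had libraries that did not overlap between the conditions. The median log2 fold change over all genes was -0.01. The counts of called subunits are given beside these shares. All 8 epithelial markers were detected, EPCAM at 373 to 398 CPM in PC9 and 338 to 346 CPM in PS cells. Of 10 markers of other cell types, CD3E, COL3A1 and HBB were at 0 in every library, and the summed level of the 10 was 89.1 to 91.6 CPM in PC9 and 46.5 to 52.9 CPM in PS cells, most of it CD68. The part of these markers in the results below was not tested.

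PC9 replicate 1 stood apart in its mitochondrial mRNA. The 13 mtDNA genes took 3.37% of its gene counts, against 1.90% and 2.33% in replicates 2 and 3, and 3.39%, 3.96% and 3.47% in the PS libraries. Its nuclear subunit genes, at a summed 8120 CPM, lay near those of replicates 2 and 3 (8279 and 8301 CPM). Results on mtDNA genes are given with and without this library.

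The nuclear subunits as a group were slightly lower in PS cells. Of 83 nuclear genes, 79 passed the filter on low counts, and 24 of them were lower and 4 higher. As shares of those tested, 30.4% were lower and 5.06% higher, beside 28.1% and 28.7% over all genes. The median log2 fold change was -0.12 and the range was -0.57 to 0.43, so no nuclear subunit changed 2-fold in either direction. The summed level of all nuclear subunits was 8234 ± 99.0 CPM (SD, n = 3) in PC9 and 7570 ± 180 CPM in PS cells, a difference of -8.06%. In bulk RNA, fewer cells that express a gene and less of its RNA per cell cannot be told apart.

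**Figure D1:**
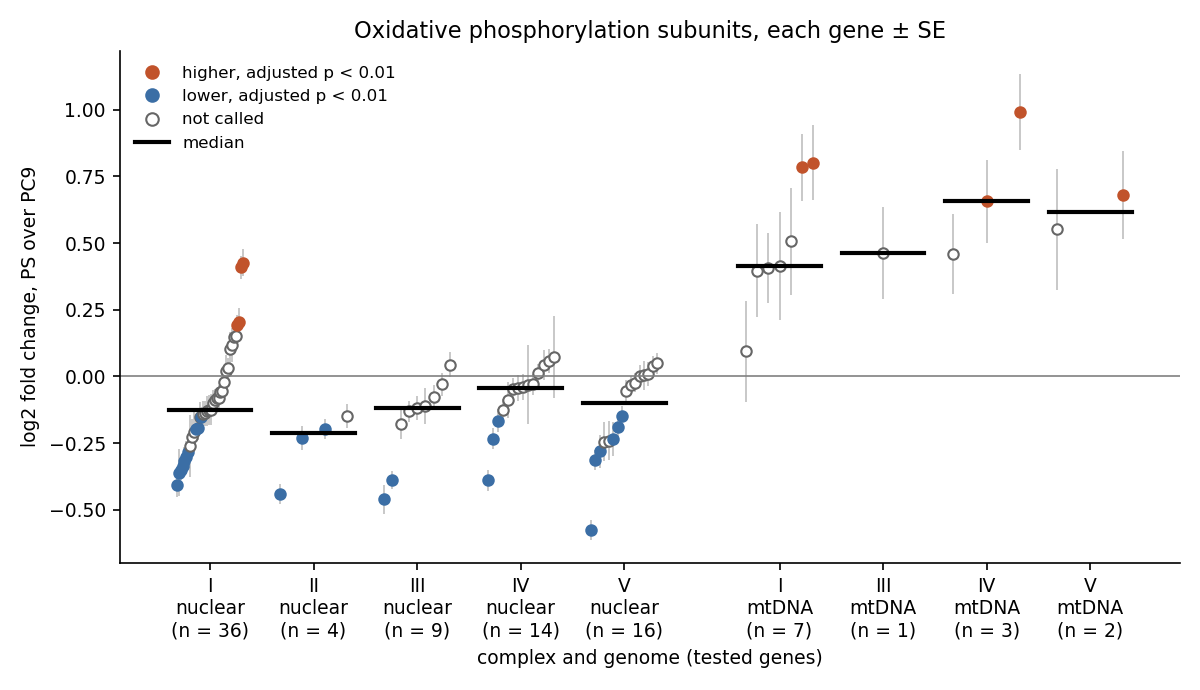
The vertical axis gives the log2 fold change of PS over PC9 for each tested subunit gene with its standard error, grouped on the horizontal axis by complex and genome. Filled points passed the adjusted p limit and bars mark medians. Nuclear medians lie between -0.21 and -0.04, and mtDNA medians between 0.41 and 0.66.

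Many nuclear respiratory genes have short promoters bound by NRF1, by ETS factors such as GABP, and by YY1. To show where such letters stand in genes that moved, 5 promoters are printed, those of the pair of subunits that rose most and of the largest falls in complexes V, III and II. Each runs from 250 bases before to 50 bases after the start of the gene (RefSeq, GRCh38.p14, written in the direction of transcription). Capitals mark matches to GCATGCGC (NRF1 type), CCGGAAG (ETS type) or AAGATGGC (YY1 type) on either strand. None of these 3 strings contains another.
NDUFB2 (chr7:140696458-140696757, plus strand): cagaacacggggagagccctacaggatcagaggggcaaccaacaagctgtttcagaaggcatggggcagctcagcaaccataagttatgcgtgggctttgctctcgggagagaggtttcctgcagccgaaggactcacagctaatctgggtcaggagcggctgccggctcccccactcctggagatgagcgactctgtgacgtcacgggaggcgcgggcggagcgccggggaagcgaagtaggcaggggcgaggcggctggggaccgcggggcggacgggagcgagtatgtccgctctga
NDUFA6 (chr22:42090723-42091022, minus strand): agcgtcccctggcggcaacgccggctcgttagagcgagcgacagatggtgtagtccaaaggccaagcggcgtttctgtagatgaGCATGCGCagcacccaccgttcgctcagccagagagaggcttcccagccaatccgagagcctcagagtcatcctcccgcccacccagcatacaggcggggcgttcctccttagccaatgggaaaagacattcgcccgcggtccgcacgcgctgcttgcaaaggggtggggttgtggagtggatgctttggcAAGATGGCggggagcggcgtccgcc
ATP5MC2 (chr12:53676034-53676333, minus strand): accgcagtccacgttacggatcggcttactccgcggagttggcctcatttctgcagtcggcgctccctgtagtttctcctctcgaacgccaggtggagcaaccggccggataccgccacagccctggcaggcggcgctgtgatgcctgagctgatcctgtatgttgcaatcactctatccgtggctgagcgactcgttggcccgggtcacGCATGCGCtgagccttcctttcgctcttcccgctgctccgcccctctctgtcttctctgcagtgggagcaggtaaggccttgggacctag
UQCRH (chr1:46303448-46303747, plus strand): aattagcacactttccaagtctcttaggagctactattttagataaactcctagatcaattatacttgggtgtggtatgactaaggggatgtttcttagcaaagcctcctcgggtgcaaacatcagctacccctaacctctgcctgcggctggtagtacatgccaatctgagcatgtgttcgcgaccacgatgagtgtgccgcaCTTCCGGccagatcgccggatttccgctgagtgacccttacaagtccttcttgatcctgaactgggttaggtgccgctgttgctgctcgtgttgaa
SDHA (chr5:218070-218369, plus strand): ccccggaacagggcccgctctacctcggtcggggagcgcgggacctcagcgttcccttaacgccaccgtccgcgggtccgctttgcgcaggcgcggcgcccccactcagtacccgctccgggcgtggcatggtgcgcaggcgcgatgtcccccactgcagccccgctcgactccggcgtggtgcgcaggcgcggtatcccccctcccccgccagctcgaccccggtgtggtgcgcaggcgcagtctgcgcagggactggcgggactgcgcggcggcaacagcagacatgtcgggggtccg
The ATP5MC2 window held the NRF1-type letters 40 bases before the start, and NDUFA6 held them 166 bases before the start together with the YY1-type letters 26 bases into the transcript. UQCRH held the ETS-type letters on the opposite strand 46 bases before the start. The windows of NDUFB2 and SDHA held no match to these exact letters. Other forms of such sites were not searched, so the lack of a match does not show that a window has none.

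RefSeq promoters were matched for 68 of the 83 nuclear subunits. The NRF1-type letters were in 13 of them (19.1%), the ETS-type letters in 20 (29.4%) and the YY1-type letters in 11 (16.2%). Among 10783 promoters of tested protein-coding genes of the same length the shares were 5.24%, 18.8% and 5.15%. The response of the subunits is given by these letters as a description, with no test. The median log2 fold change was -0.15 with the NRF1-type letters and -0.13 without, -0.09 with the ETS-type letters and -0.13 without, and -0.14 with the YY1-type letters and -0.13 without. Of the 13 genes with the NRF1-type letters 4 were lower and 2 higher, against 16 and 2 of 53 tested genes without them. Of the 20 with the ETS-type letters 5 were lower and 0 higher in edgeR, against 15 and 4 of 46 without. Of the 11 with the YY1-type letters 2 were lower and 1 higher, against 18 and 3 of 55 without. Over all genes 28.1% were lower and 28.7% higher. A match describes the letters in this window and not a bound site. Genes counted as without the letters may hold other forms of a site, which were not searched.

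Complex I held all 4 of the nuclear subunits that rose, or 11.1% of its 36 nuclear genes beside 28.7% of all genes. NDUFB2, a small accessory subunit of the membrane arm (ENSG00000090266, chr7:140690777-140722790, GRCh38), was at 27.5, 29.4 and 28.5 CPM in the 3 PC9 libraries and 38.1, 37.1 and 39.6 CPM in the 3 PS libraries. Every PS library lay above every PC9 library, and the log2 difference came to 0.43 ± 0.05 (SE, edgeR adjusted p = 1.74e-05). NDUFA6, an accessory subunit of the LYR family beside the quinone-binding module (ENSG00000184983, chr22:42085526-42090884), was at 46.8, 49.5 and 50.3 CPM in PC9 and 63.2, 66.2 and 65.2 CPM in PS cells, again without overlap. Its log2 fold change was 0.41 ± 0.04 (edgeR adjusted p = 1.07e-05). For NDUFA6, 96.8% of the counts lay on transcript identifiers outside the annotation used here, and the call was lost when only annotated transcripts were summed (log2 fold change 0.04, adjusted p = 0.87). NDUFA12 and NDUFS6, both of the NADH-oxidising matrix arm, rose by less, with log2 fold changes of 0.21 ± 0.05 and 0.19 ± 0.04 (edgeR adjusted p = 0.0041 and 0.0012). The NDUFA12 call was lost under 2 other scalings and without PC9 replicate 2 or 3 or PS replicate 2 or 3, with adjusted p up to 0.025.

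Of the 36 nuclear complex I genes 10 were lower, or 27.8% beside 28.1% of all genes, and the median log2 fold change was -0.13. NDUFS4, which sits where the NADH-oxidising module joins the rest of the enzyme, fell from 41.8, 40.3 and 41.8 CPM to 31.7, 30.2 and 31.5 CPM. The groups did not overlap, and the log2 fold change was -0.41 ± 0.05 (edgeR adjusted p = 1.46e-05). NDUFB1, an accessory subunit of the membrane arm, was low in level and fell from 7.77 ± 0.436 to 6.05 ± 0.360 CPM (SD, n = 3, edgeR adjusted p = 0.0039), a call lost in DESeq2 and without PC9 replicate 3 or PS replicate 2 or 3 (adjusted p up to 0.020). NDUFV1, the core subunit that binds NADH and FMN, fell by 0.20 ± 0.05 on the log2 scale (adjusted p = 0.0048). This call was kept in 12 of 16 other fits and lost without PC9 replicate 2 or 3 or PS replicate 1 or 2 (adjusted p up to 0.026). A further 6 genes called lower, NDUFV2, NDUFC1, NDUFB10, NDUFA1, NDUFB4 and NDUFA10, fell by 0.15 to 0.33. NDUFA10 lost its call without any one PS replicate (adjusted p up to 0.016) and NDUFB4 without PS replicate 1 or 2 (adjusted p up to 0.018). The 22 genes that were not called had log2 fold changes of -0.26 to 0.15. NDUFS1, the largest core subunit and a carrier of iron-sulphur clusters, had a log2 fold change of -0.08 ± 0.04 and was not called (adjusted p = 0.085).

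The calls were spread over both arms of complex I. Among the 16 nuclear subunits of the matrix arm, which oxidises NADH and reduces coenzyme Q, 4 were lower (25%) and 3 higher (18.8%). The median log2 fold change of this arm was -0.08. Among the 20 nuclear subunits of the membrane arm 6 were lower (30%) and 1 higher (5%), with a median of -0.13. Over all genes the shares were 28.1% lower and 28.7% higher, and a difference between the arms was not tested. The summed level of the 36 nuclear genes was 2657 ± 14.0 CPM in PC9 and 2508 ± 62.5 CPM in PS cells, a difference of -5.59%. With the 7 mtDNA genes, which make up most of the counts, the sum was 13285 ± 3445 CPM in PC9 and 16748 ± 1663 CPM in PS cells, so it differed in the other direction, and its libraries overlapped.

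All 4 subunits of complex II, the succinate dehydrogenase shared by the respiratory chain and the citric acid cycle, were lower in every PS library than in any PC9 library, beside 71.3% of all genes whose libraries did not overlap in either direction. SDHA, the flavoprotein that oxidises succinate (ENSG00000073578, chr5:218303-257082), was at 407, 428 and 423 CPM in PC9 and 298, 316 and 312 CPM in PS cells. The log2 fold change was -0.44 ± 0.04 (edgeR adjusted p = 1.55e-06). SDHD and SDHC, the membrane anchors, fell by 0.23 ± 0.05 and 0.20 ± 0.04 (adjusted p = 9.96e-04 and 6.98e-04). SDHB, the iron-sulphur subunit, was at 75.7, 72.0 and 70.3 CPM in PC9 and 64.0, 67.8 and 65.1 CPM in PS cells. Although its groups did not overlap, it was not called, with a log2 fold change of -0.15 ± 0.04 (adjusted p = 0.012).

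Complex II had the most negative median of the 5 nuclear sets, -0.21, although with only 4 genes. The summed level was 701 ± 5.23 CPM in PC9 and 555 ± 9.08 CPM in PS cells, a difference of -20.9%, and SDHA made up most of it. Reads of SDHA can be shared with its pseudogenes: SDHAP1, SDHAP2 and SDHAP3 held 2782, 1991 and 978 counts over the 6 libraries. Adding these rows to SDHA left it called. The subunit that fell most in complex II is thus its catalytic one, and the counts do not tell whether its protein followed.

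In complex III 2 of 9 nuclear genes were lower, or 22.2% beside 28.1% of all genes. UQCRH, the hinge protein that bridges to cytochrome c (ENSG00000173660, chr1:46303698-46316776), was at 206, 197 and 210 CPM in PC9 and 137, 149 and 159 CPM in PS cells. Its groups did not overlap, and the log2 fold change was -0.46 ± 0.05 (edgeR adjusted p = 2.00e-05). UQCRC2, a core protein on the matrix side, was nearly constant within each condition, at 228, 229 and 233 CPM in PC9 and 178, 175 and 175 CPM in PS cells (log2 fold change -0.39 ± 0.03, adjusted p = 1.64e-06). The 3 remaining named core genes did not pass. UQCRC1, the partner of UQCRC2, had a log2 fold change of -0.12 ± 0.04 (adjusted p = 0.035). UQCRFS1, the Rieske iron-sulphur protein, had -0.13 ± 0.04 (adjusted p = 0.013). Without PC9 replicate 1 both were called. CYC1, the cytochrome c1 haem protein, had -0.03 ± 0.04 (adjusted p = 0.57). No nuclear complex III gene was higher in edgeR, and the count at an unadjusted p under 0.05 was 0, as it was with DESeq2 and limma voom at the adjusted limit. The 7 genes that were not called had log2 fold changes of -0.18 to 0.04. The summed level of the 9 genes differed by -12.9%.

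Complex IV had the nuclear median nearest to 0. Of 18 nuclear genes 14 were tested, and 3 were lower, or 21.4% beside 28.1% of all genes. This median was -0.04, and it was -0.01 without PS replicate 1 and -0.09 without PS replicate 3. COX7A2L, which helps to join complex III with complex IV in supercomplexes, was at 183, 177 and 177 CPM in PC9 and 131, 138 and 141 CPM in PS cells. Its log2 fold change was -0.39 ± 0.04 (edgeR adjusted p = 6.63e-06). COX6C and COX7C, small membrane subunits, fell by 0.23 ± 0.04 and 0.17 ± 0.04 (adjusted p = 3.21e-04 and 0.0047). COX7C lost its call without PC9 replicate 3 or any PS replicate, with adjusted p up to 0.029. COX4I1, a nuclear subunit needed early in assembly, was at 199, 197 and 196 CPM in PC9 and 195, 198 and 204 CPM in PS cells, with overlapping groups and a log2 fold change of 0.01 ± 0.03. NDUFA4 had 0.04 ± 0.06, and all 11 genes not called lay between -0.13 and 0.07. For complex IV, too, edgeR called 0 nuclear genes higher, with 0 at an unadjusted p under 0.05 and 0 by DESeq2 or limma voom.

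A switch between tissue-type isoforms of complex IV was not detectable. COX4I2, COX6A2, COX7A1 and COX8C, forms typical of lung, of muscle or of testis, had 0 counts in all 6 libraries. A count of 3, taken as the limit that 0 allows, would be 0.0872 to 0.103 CPM in these libraries and at most 0.116% of the family's counts. This limit covers counting error only. COX6B2, the testis form of COX6B1, made up 2.18 ± 0.223% of the pair's counts in PC9 and 2.26 ± 0.0293% in PS cells. COX7B2 made up 2.54 ± 0.0346% and 2.89 ± 0.446% of its pair. Within the COX7A family the shares moved. COX7A2 had a log2 fold change of -0.04 ± 0.05 and was not called, and the share of COX7A2L in the family fell from 62.3 to 65.2% in PC9 to 57.9 to 58.9% in PS cells, without overlap. The smallest exact permutation p for 3 libraries against 3 is 0.1, so such a share cannot pass 0.05.

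**Figure D2:**
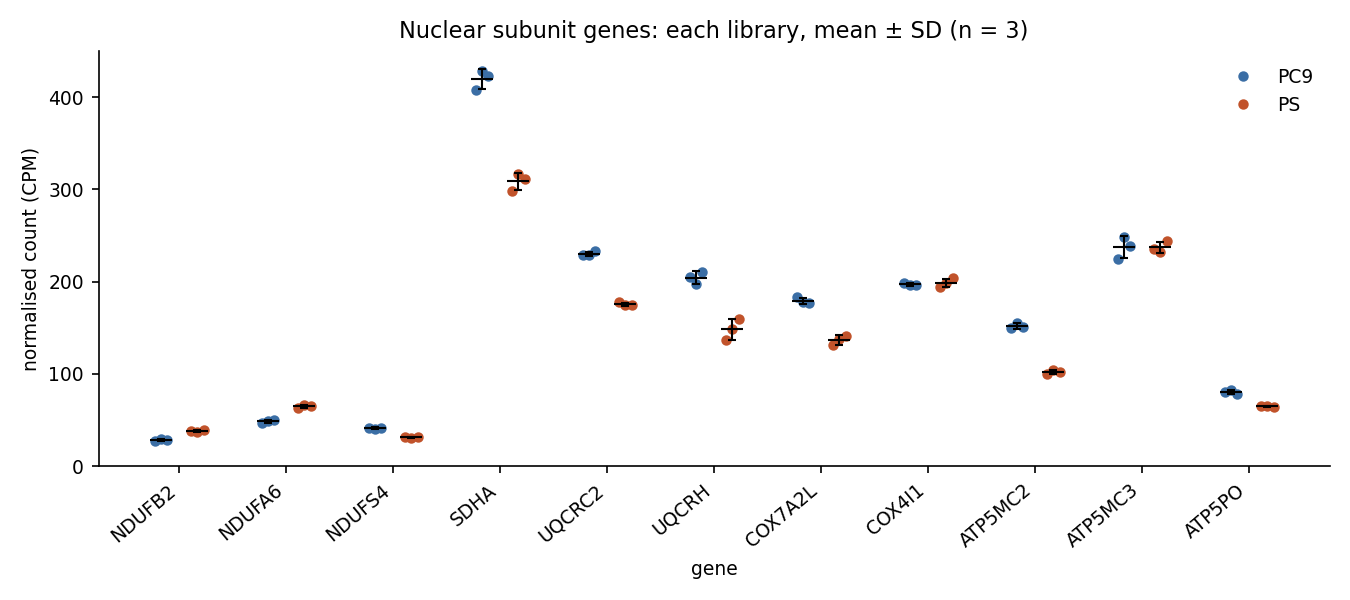
The normalised count (CPM, vertical axis) of 11 nuclear subunit genes is shown for each PC9 and PS library, with the mean and SD of 3 libraries. ATP5MC2, SDHA, UQCRH, UQCRC2 and COX7A2L sit lower in all PS libraries, NDUFB2 and NDUFA6 higher, and COX4I1 and ATP5MC3 overlap.

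Complex V contained the largest fall of any subunit. ATP5MC2 is a gene for subunit c, which forms the rotating c-ring (ENSG00000135390, chr12:53632726-53677408). It was at 150, 156 and 151 CPM in PC9 and 99.8, 105 and 102 CPM in PS cells. The log2 fold change was -0.57 ± 0.04 (edgeR adjusted p = 1.97e-07), and the call held in all 16 other fits. The genes ATP5MC1, ATP5MC2 and ATP5MC3 encode the same mature protein behind different import signals. ATP5MC3 was at 225, 248 and 238 CPM in PC9 and 236, 232 and 244 CPM in PS cells, with a log2 fold change of 0.00 ± 0.04. ATP5MC1 had a log2 fold change of -0.24 ± 0.07 and was not called (adjusted p = 0.012), although 6 of 16 other fits called it, among them that without PC9 replicate 1. The share of ATP5MC2 in the counts of the 3 genes was 35.6 to 37.3% in PC9 and 27.4 to 28.8% in PS cells, and that of ATP5MC3 was 55.9 to 56.9% and 63.9 to 65.4%. Neither range overlapped between the conditions.

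Of the 16 nuclear complex V genes 6 were lower, or 37.5% beside 28.1% of all genes, and edgeR called 0 higher, with 0 at an unadjusted p under 0.05 and 0 by DESeq2 or limma voom. ATP5PO, the stalk protein that confers oligomycin sensitivity, fell by 0.31 ± 0.04 (adjusted p = 3.38e-05), and ATP5MG, a subunit at the dimer interface, by 0.28 ± 0.06 (adjusted p = 0.0022, or 0.014 without PC9 replicate 3). The remaining falls, of ATP5F1C, ATP5F1D and ATP5PD, were 0.15 to 0.24 in size. ATP5F1D lost its call without PC9 replicate 2 or 3 or any one PS replicate (adjusted p up to 0.031), and ATP5PD without PC9 replicate 3 or any one PS replicate (adjusted p up to 0.020). The 10 genes not called lay between -0.24 and 0.05. In the catalytic head 2 of 5 genes were lower (40%), ATP5F1C and ATP5F1D, and outside the head 4 of 11 (36.4%). ATP5F1A and ATP5F1B, the alpha and beta subunits of the head, had log2 fold changes of -0.03 ± 0.03 and 0.05 ± 0.04. Neither was called (adjusted p = 0.40 and 0.28). The median over the 5 head genes was -0.03 and over the 11 others -0.15. The difference between these medians was not tested.

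Transcript counts gave fewer calls. Of 54499 transcripts tested 3.91% were lower and 3.89% higher in PS cells. Of 332 tested member transcripts 13 were lower and 1 higher. The single rise was the protein-coding NDUFB2 transcript ENST00000247866 (log2 fold change 0.40 ± 0.05, adjusted p = 0.0050). Among the falls were the protein-coding ATP5MC2 transcript ENST00000549164, at 65.7, 65.8 and 61.2 CPM in PC9 and 35.3, 34.7 and 44.3 CPM in PS cells, and the main UQCRH transcript ENST00000311672 (-0.47 ± 0.07, adjusted p = 0.0063). Of the 13 transcripts that fell 11 were protein-coding. For COX6C and NDUFC1 only 19.6% and 24.3% of the counts lay on protein-coding transcripts, and no COX6C transcript was called.

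**Figure D3:**
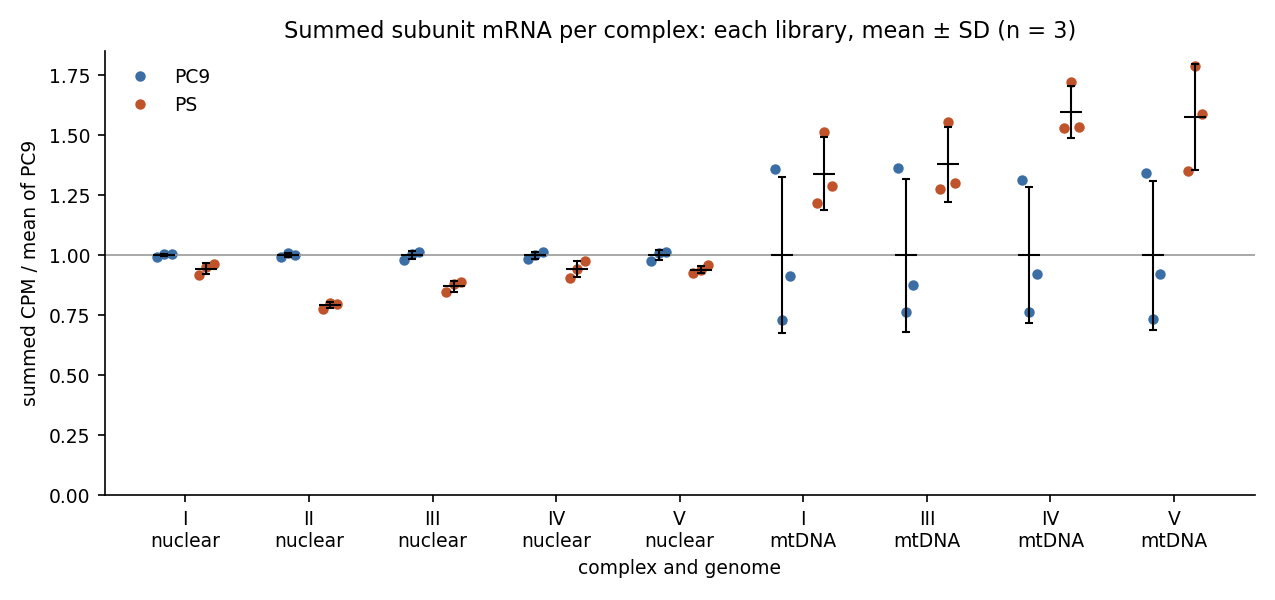
The summed CPM of the subunits of each complex is divided by the PC9 mean (vertical axis) and shown for each library with the mean and SD (n = 3), nuclear and mtDNA genes apart. Mean nuclear sums of PS cells lie at 0.791 to 0.944 of the PC9 mean, and mean mtDNA sums at 1.34 to 1.60. Single libraries of both conditions scatter around their means, for the mtDNA sums more widely in PC9.

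The mtDNA genes had fold changes opposite in sign to those of most nuclear subunits. All 13 had a positive log2 fold change, from 0.09 to 0.99 with a median of 0.51 (MT-ND5 turned slightly negative without PC9 replicate 2 or PS replicate 2), but only 5 were called higher, or 38.5% beside 28.7% of all genes. In edgeR 0 were lower, with 0 at an unadjusted p under 0.05 and 0 by DESeq2 or limma voom. The summed level was 33346, 18595 and 22815 CPM in PC9 and 34248, 40599 and 35434 CPM in PS cells. Every PS library lay above every PC9 library, yet PS replicate 1 exceeded PC9 replicate 1 only 1.03-fold. The mean was 1.48-fold higher in PS cells, or 1.78-fold without PC9 replicate 1. Without PC9 replicate 1 all 13 genes were called higher, with log2 fold changes of 0.40 to 1.22 and a median of 0.85, whereas without PC9 replicate 3 or without PS replicate 2 only 3 were called.

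The ratio of mtDNA to nuclear subunit counts within a library does not depend on library scaling. It was 4.11, 2.25 and 2.75 in PC9 and 4.64, 5.34 and 4.58 in PS cells. Per kilobase of transcript the median mtDNA subunit was at 1513 CPM in PC9 and 2185 CPM in PS cells, and the median nuclear subunit at 103 and 94.6 CPM. Poly-A selection bears on these levels, since mitochondrial mRNAs carry short tails and MT-ND6 mRNA lacks a stable tail. A difference in tail length and a difference in amount cannot be told apart with these libraries.

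**Figure D4:**
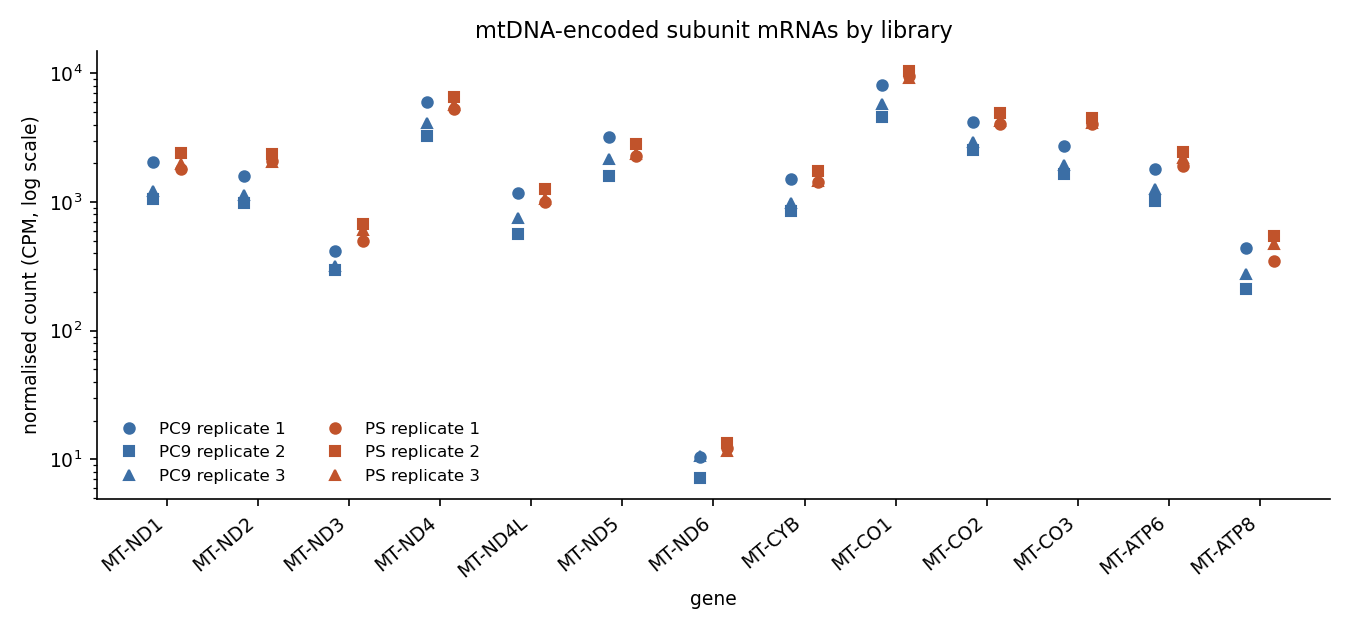
The normalised count (CPM, log scale) of the 13 mtDNA-encoded mRNAs is shown for each library, with a marker for each replicate. PC9 replicate 1 lies near the PS libraries for most genes. MT-CO3, MT-ND2, MT-ND3, MT-ND6, MT-CO1 and MT-ATP6 are higher in all PS libraries than in any PC9 library. These 6 are 46.2% of the 13, beside 71.3% of all genes whose libraries did not overlap in either direction.

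MT-CO3, a core subunit of complex IV (ENSG00000198938, chrM:9207-9990), showed the largest rise of all subunits. It was at 2739, 1649 and 1951 CPM in PC9 and 4010, 4486 and 4110 CPM in PS cells. The groups did not overlap, and the log2 fold change was 0.99 ± 0.14 (edgeR adjusted p = 9.44e-05), or 1.22 without PC9 replicate 1. MT-CO1, which holds the oxygen-binding haem and copper centre, was at 8181, 4609 and 5726 CPM in PC9 and 9528, 10404 and 9236 CPM in PS cells (0.66 ± 0.16, adjusted p = 0.0033), and its value without PC9 replicate 1 was 0.91. MT-CO2, which receives electrons from cytochrome c, had a log2 fold change of 0.46 ± 0.15 and was not called (adjusted p = 0.018). Without PC9 replicate 1 the value was 0.70 and MT-CO2 was called. Over fits that left out a library, MT-CO3 ranged from 0.84 to 1.22, MT-CO1 from 0.48 to 0.91 and MT-CO2 from 0.31 to 0.70.

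Among the mtDNA genes of complex I, which form its proton-pumping membrane arm, MT-ND2 and MT-ND3 were called. MT-ND2 was at 1593, 978 and 1134 CPM in PC9 and 2064, 2353 and 2040 CPM in PS cells (log2 fold change 0.80 ± 0.14, edgeR adjusted p = 4.18e-04). MT-ND3 rose from 345 ± 65.1 to 594 ± 87.1 CPM (0.78 ± 0.13, adjusted p = 2.30e-04). Without PC9 replicate 1 the values of these genes were 1.03 and 0.95. Leaving out each library in turn gave 0.66 to 1.03 for MT-ND2 and 0.69 to 0.95 for MT-ND3. MT-ND5 had the smallest change of the 13. It was at 3201, 1603 and 2152 CPM in PC9 and 2271, 2808 and 2345 CPM in PS cells, so that PC9 replicate 1 was the highest of all libraries, and the log2 fold change was 0.09 ± 0.19 (adjusted p = 0.68). Leaving out PC9 replicate 2 turned it to -0.11, and leaving out PC9 replicate 1 raised it to 0.40 (adjusted p = 0.0057). MT-ND1, MT-ND4, MT-ND4L and MT-ND6 had log2 fold changes of 0.40 to 0.51 and were not called with all libraries.

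In complex III, MT-CYB, the haem-bearing core of the enzyme, had a log2 fold change of 0.46 ± 0.17 (adjusted p = 0.033), or 0.75 without PC9 replicate 1. In complex V, MT-ATP6, the subunit through which protons pass to the c-ring, was at 1805, 1018 and 1273 CPM in PC9 and 1914, 2454 and 2189 CPM in PS cells (0.68 ± 0.17, adjusted p = 0.0038), or 0.93 without PC9 replicate 1. MT-ATP8, whose reading frame overlaps that of MT-ATP6, had 0.55 ± 0.23 (adjusted p = 0.050). MT-ND4L and MT-ND4 overlap in the same way, so reads at these joints can be assigned to either gene. The calls of MT-CO1 and MT-ATP6 were kept in 13 and 12 of 16 other fits, with adjusted p up to 0.018 and 0.019. Both were lost in DESeq2, without PC9 replicate 3 and without PS replicate 2, and MT-ATP6 also without PS replicate 3. With each library left out in turn, MT-CYB ranged from 0.30 to 0.75, MT-ATP6 from 0.51 to 0.93 and MT-ATP8 from 0.34 to 0.90.

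The make-up of the mtDNA mRNA also differed, which does not depend on how much of it a library held. As a share of the counts on the 13 genes, MT-CO3 made up 8.21%, 8.87% and 8.55% in PC9 and 11.7%, 11.1% and 11.6% in PS cells. MT-ND5 went the other way, from 9.60%, 8.62% and 9.43% to 6.63%, 6.92% and 6.62%. PC9 replicate 1 was close to the other PC9 libraries in both shares, unlike in its total.

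MT-ND2, MT-CO1 and MT-ATP6 also took larger shares in every PS library, with 5.76 to 6.03% against 4.78 to 5.26%, 25.6 to 27.8% against 24.5 to 25.1% and 5.59 to 6.18% against 5.41 to 5.58%. MT-ND4 and MT-CO2 took smaller shares, with 15.5 to 16.2% against 17.4 to 18.0% and 11.9 to 12.1% against 12.6 to 13.5%. In all, 4 genes had a higher and 3 a lower share without overlap, and 6 overlapped. Each of the 7 reached an exact two-sided permutation p of 0.1, the smallest that 3 libraries against 3 allow. By CPM, 71.3% of all genes had libraries that did not overlap. The shares are parts of a whole, so larger shares of some genes mean smaller shares of others. The shares were computed after the totals had been seen to differ. When counts of mitochondrial pseudogenes were added to their parents, MT-ATP6 overlapped and MT-CYB no longer did, and the other 6 kept their separation. MTATP6P1, a nuclear copy with 54021 counts in all, was the main contributor.

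**Figure D5:**
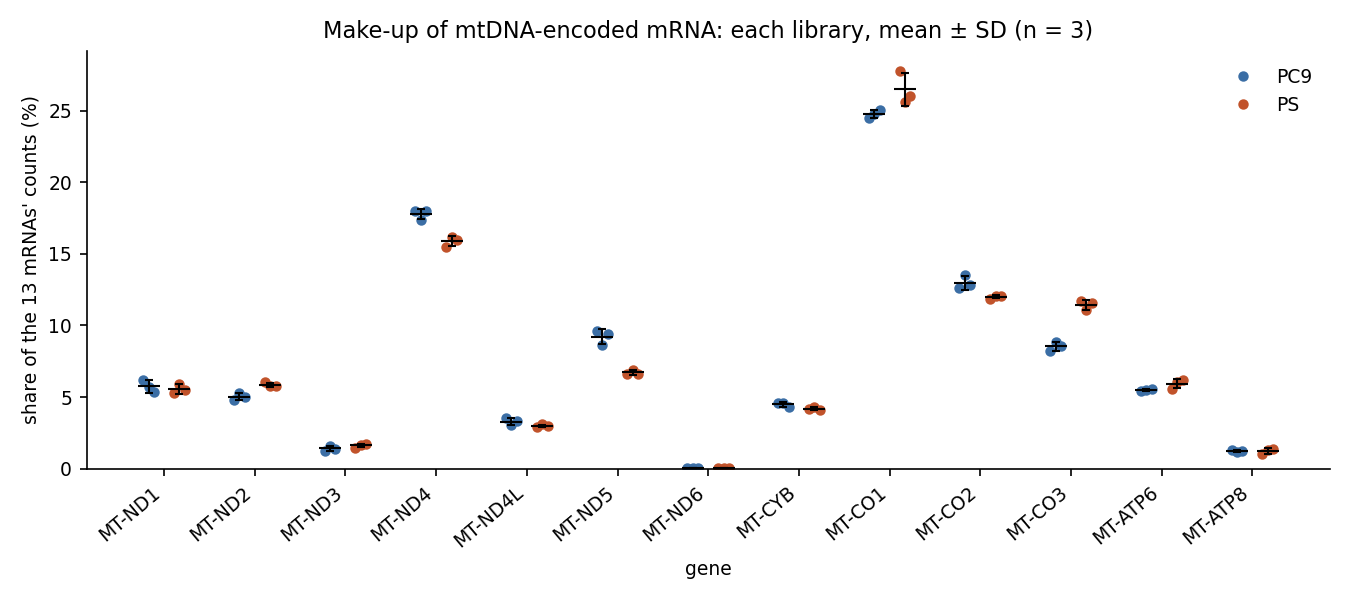
The share of each mRNA in the counts of the 13 mtDNA-encoded genes (percent, vertical axis) is shown for each library with the mean and SD (n = 3). MT-CO3 moves from 8.54% to 11.5% and MT-ND5 from 9.22% to 6.72%, both without overlap between PC9 and PS libraries.

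The MTRNR2L rows took overlapping shares of the counts in PC9 and PS libraries. These 13 rows are nuclear copies resembling part of the large mitochondrial rRNA, whose own genes are not among the rows used here. They took 0.353%, 0.220% and 0.259% of counts in PC9 and 0.227%, 0.252% and 0.234% in PS cells. The 13 mRNAs held 8.67 to 9.56 times as many counts as these rows in PC9 and 14.8 to 15.7 times as many in PS cells. Among the PC9 libraries replicate 1 was highest both in the mRNAs and in these rows, and its ratio lay with those of its condition. The rows of single mRNA copies are given for comparison. MTND2P28, a nuclear copy of MT-ND2, held 1421, 715 and 1002 counts in PC9 and 1577, 2071 and 1634 in PS cells, before scaling and without overlap. MTATP6P1 held 10483, 5033 and 6423 counts in PC9 and 7901, 12483 and 11698 in PS cells, with overlap.

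Genes that serve the complexes were counted from lists, whose counts stand beside 28.1% of all genes lower and 28.7% higher. Apart from COX6B2 and COX7B2, these genes are not members. Of 18 complex I assembly factors 8 were lower (44.4%) and 2 higher (11.1%), among the former NDUFAF7, a methyltransferase, which fell by 0.71 ± 0.08 on the log2 scale (edgeR adjusted p = 9.30e-06), and COA1 and NUBPL with -0.35 and -0.48. Of 4 complex II assembly factors 3 were lower and 0 higher. SDHAF4, which assists the loading of flavinated SDHA, was at 17.8, 16.0 and 16.4 CPM in PC9 and 7.98, 8.58 and 7.32 CPM in PS cells (-1.07 ± 0.08, adjusted p = 5.53e-07). SDHAF1 and SDHAF3, which serve SDHB, fell by 0.58 and 0.34. SDHAF2 went the other way, with a log2 fold change of 0.18 ± 0.06, and was not called (edgeR adjusted p = 0.025). It was the 1 of the 4 that was higher in edgeR at an unadjusted p under 0.05. By DESeq2 or limma voom 0 were higher at the adjusted limit. The complex II falls thus covered 3 of 4 subunits and 3 of 4 assembly factors, beside 28.1% of all genes.

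For complex III 1 of 6 assembly factors was lower (TTC19, -0.28) and 1 higher (UQCC2, 0.27, lost without PC9 replicate 3 or PS replicate 3 at an adjusted p up to 0.012). For complex IV 8 of 25 were lower (32%) and 7 higher (28%), near the 28.1% and 28.7% of all genes, with PET100 and COA5 at -0.61 and -0.39 and COX20 at 0.49. For complex V 2 of 4 were lower, FMC1 (-0.66) and ATPAF2 (-0.24, adjusted p = 0.012 without PS replicate 1), and 0 higher, with 0 at an unadjusted p under 0.05 and 0 by DESeq2 or limma voom.

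CYCS, cytochrome c itself, rose more than any nuclear subunit. It was at 125, 118 and 125 CPM in PC9 and 227, 227 and 225 CPM in PS cells. The log2 fold change was 0.88 ± 0.04 (edgeR adjusted p = 6.73e-09), and HCCS, which attaches the haem to it, rose by 0.44. Over the list of cytochrome c and coenzyme Q synthesis 3 of 15 were higher and 4 lower, among the latter COQ8A at -0.62, and the median log2 fold change was -0.0033. Neither share exceeded the 28.7% and 28.1% of all genes. Of 12 tested relatives and regulators of the subunits, 5 were lower (41.7%) and 2 higher (16.7%). The 12 include COX6B2 and COX7B2, which are members given above and were not called. ATP5IF1, the inhibitor of the ATP synthase, fell by 0.60 ± 0.04 (adjusted p = 2.67e-07) and UCP2, an inner membrane carrier, by 0.95 ± 0.08. NDUFA4L2, the hypoxia-linked relative of NDUFA4, was low at 2.08 ± 0.291 CPM in PC9 and 4.58 ± 0.539 CPM in PS cells (1.14 ± 0.14, adjusted p = 3.70e-05).

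The genes that maintain and transcribe mtDNA did not move in a common direction. Of 17, 3 were higher (17.6%, beside 28.7% of all genes) and 4 lower (23.5%, beside 28.1%). TFAM, which packages mtDNA and starts its transcription, was at 127, 116 and 125 CPM in PC9 and 127, 122 and 125 CPM in PS cells (log2 fold change 0.02 ± 0.04). TFB1M, the methyltransferase of the small mitochondrial rRNA, fell by 1.05 ± 0.09 (edgeR adjusted p = 1.73e-06), TOP1MT fell by 0.35 and RNASEH1 rose by 0.46. Of 18 genes for mitochondrial RNA processing and stability 6 were higher (33.3%) and 5 lower (27.8%), with FASTK at 0.45, PNPT1 at 0.36 and TRMT10C at -0.30. Of 9 tested regulators of nuclear respiratory genes 3 were higher (33.3%) and 1 lower (11.1%). PPARGC1B, a coactivator, rose from 4.64 ± 0.0510 to 10.5 ± 1.12 CPM (1.17 ± 0.10, adjusted p = 1.46e-06), GABPB1 rose by 0.21 (lost under 2 other scalings and without PC9 replicate 2 or any PS replicate, adjusted p up to 0.025) and GABPA fell by 0.39. PPARGC1A stayed at or below 0.0585 CPM in every library and was not tested.

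Markers of mitochondrial content were split, with 8 of 17 higher (47.1%, beside 28.7% of all genes) and 7 lower (41.2%, beside 28.1%) and a median log2 fold change of 0.05. SLC25A4, the heart-type ADP/ATP carrier, rose from 19.6 ± 0.198 to 41.4 ± 0.583 CPM (1.08 ± 0.05, edgeR adjusted p = 6.68e-09), and HSPA9, a matrix chaperone, by 0.68. TOMM20, an import receptor, fell by 0.43. Of 15 proliferation markers 8 were higher (53.3%) and 4 lower (26.7%). Among those higher were PLK1 at 0.67, BIRC5 at 0.45 and CCNA2 at 0.44. Those lower were MCM5 at -0.57, MCM2 at -0.37, TYMS at -0.32 and PCNA at -0.24. Among the epithelial markers KRT18 and KRT19 fell by 0.92 and 1.03 and CDH1 rose by 0.60. Among the markers of other cell types COL1A1 rose (1.47 ± 0.07) while CD68 (-1.83 ± 0.06) and PECAM1 fell, the latter from 4.37 ± 0.394 to 0.214 ± 0.0873 CPM. Their part in the subunit values was not tested.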

How the data were processed

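Total RNA of 3 PC9 and 3 PS libraries was enriched for poly-A RNA. The authors trimmed and filtered the reads and assigned them by pseudoalignment in Kallisto (0.46.1 per the labels, which also name sleuth 0.30.0) to Ensembl transcripts of GRCh38. The deposited values are Kallisto's estimated counts, given by the authors in whole numbers per gene symbol and per transcript and not normalised. Kallisto divides reads among similar sequences, so subunits and their pseudogenes share uncertainty. Strand settings are not given in the sources used here.

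Condition and replicate come from the sample titles, and dose, time and numbers of cultures from the study's methods. The gene table was fitted with edgeR 4.0.16 in R 4.3.3 (filterByExpr, TMM, glmQLFit and glmQLFTest, no block, Benjamini-Hochberg limit 0.01), and the transcript table likewise. A standard error is the absolute log2 fold change over the root of the quasi-likelihood F. Total gene counts were 29476725 to 34893782, and the spread between replicates sets the precision of group means. All 6 libraries were kept, since those of a condition differed beyond sampling noise (chi-square over degrees of freedom 3.53 to 21.1).

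All 96 members were matched to GENCODE 44 identifiers. Symbols of the table matched a current gene name for 27685 genes and an older name listed by RefSeq for 650. Levels per kilobase used the mean length of annotated transcripts weighted by counts. No set test was run. Members and lists were chosen with earlier results of these data known. Genes named are all mtDNA members, all SDH genes, the 3 largest rises and falls called in each other complex, core subunits, isoform families, up to 3 genes of smallest p per list, and TFAM, PPARGC1A, CYCS and NDUFA4L2. EPCAM, SDHAF2, the proliferation markers that fell, pseudogenes and further called members were named after their values were seen. The split of complexes I and V into arms or head was made then too. The isoform family genes COX6A1, COX6B1, COX7B and COX8A have no fold change given above. Their log2 fold changes were 0.06, -0.09, -0.13 and -0.04, and none was called in the main fit.

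Alternatives were DESeq2 1.42.0, limma 3.58.1 (voom), other scalings, no filter, gene counts summed from transcripts, mtDNA left out of library sizes, a replicate block, each library left out, a limit of 0.05 and NDUFA4 counted with complex I. Adding pseudogene rows to their parents (9 of 553 rows held at least 100 counts) was chosen after seeing the data. Figures were drawn with matplotlib 3.10.9.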

Additional observations from a re-analysis of the deposited data

How the results depend on the processing

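The count of nuclear subunits called lower was 24 and ranged from 24 to 36 under other tools, scalings, filters and limits and from 18 to 32 when a library was left out. The count called higher was 4, with 3 to 6 and 3 to 5. None of the 33 called members changed sign while called. The count of mtDNA genes called higher, 5 with all libraries, was 8 with no filter on low counts and 10 at a limit of 0.05, and ranged from 3 to 13 when a library was left out. It was 13 without PC9 replicate 1, and 3 without PC9 replicate 3 or without PS replicate 2. The cause was not tested. All genes called, 8307, ranged from 7054 to 8407 without a library and from 7632 to 9931 otherwise. Scaling by the upper quartile or by library size alone moved the median over all genes to -0.05 and -0.06. Each of these scalings called 36 nuclear subunits lower, beside 4562 and 4652 of all genes, against 4114 of all genes in the main fit. The median of complex II was then -0.26 and -0.27, that of complex V -0.14 and -0.15, that of complex IV -0.09 and -0.10, and that of complex III -0.17 with library size alone. Leaving out a library gave medians of 0.24 to 0.75 for the mtDNA genes of complex I. Counting NDUFA4 with complex I changed no count of calls. Summing transcripts leaves out the share of counts on identifiers outside the annotation, 96.8% for NDUFA6.

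Some uncalled genes near 0 changed sign. The upper quartile gave -0.031 for COX4I1, -0.041 for ATP5MC3 and -0.018 for TFAM. Library size alone gave -0.042, -0.052 and -0.028 for these, -0.0046 for ATP5F1B and -0.0095 for NDUFA4. ATP5MC3 was -0.00074 with mtDNA left out of library sizes and -0.0028 when summed from transcripts. Over fits that left out a library, MT-ND5 ranged from -0.11 to 0.40 (called without PC9 replicate 1), CYC1 from -0.0695 to 0.0063, COX4I1 from -0.0066 to 0.029, NDUFA4 from -0.0088 to 0.091, COX6B2 from -0.11 to 0.041, COX7B2 from -0.10 to 0.16, ATP5MC3 from -0.036 to 0.036 and TFAM from -0.017 to 0.051.

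Same-numbered libraries correlated at 0.12, 0.02 and 0.02 in their deviations from group means, and differently numbered ones at -0.12 to 0.097. These values do not settle whether replicate numbers pair the samples, and the main fit used no block. With a replicate block 30 nuclear subunits were lower, 5 higher and 7 mtDNA genes higher, against 24, 4 and 5 without it. Calls over all 14626 genes rose as well, to 4289 lower and 4382 higher with the block, from 4114 and 4193 without it.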
